A study of Equus caballus with 15 samples.

Results

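PRP lysate and autologous conditioned serum (ACS), a pair of blood products used as orthobiologic therapies (OTs) in horses, were compared with each other on IL-1ß activated equine macrophages. The comparison took every library whose labels give PRP or ACS as the treatment, 3 libraries a side and 6 of the 15 in the series. It covered the 11628 of 16932 listed genes that averaged 1 CPM or more over the 15 libraries, CPM being read counts scaled to a common total per library. PRP lysate was made from blood with a double syringe system for platelet rich plasma and freezing, which releases platelet contents. ACS was made by incubating blood in a system meant to enrich the antagonist of the IL-1 receptor in serum. The same 3 healthy horses are described as donors of both products, so the libraries of a product replicate the product, but which PRP lysate and ACS libraries share a donor is not given. The macrophages came from blood mononuclear cells of 2 other horses, grown for 5 days with human M-CSF at 30 ng/ml, and which horse's cells each library holds is not stated in the sources used here. Both groups received IL-1ß at 10 ng/ml together with the product, which made up 25% of the medium for 24 h. The labels place collection after this treatment and washing, while the study's methods describe a further day of culture in medium alone. The groups used beside them were macrophages with IL-1ß alone and untreated macrophages, 3 libraries each, which the study describes as technical replicates. The other 3 libraries of the series, macrophages with IL-1ß and conditioned medium of mesenchymal stromal cells (MSC-CM), are not described here but entered the fit, and so the shared spread and the filter on mean CPM. The p-values rest on a spread pooled over all 15 libraries, technical replicates included, and not on that between donors of the products alone. No sample of the products themselves was analysed here.

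Macrophages clear dying cells and debris through surface receptors, remodel the matrix with secreted proteases and crosslinking enzymes, and recruit other leukocytes with cytokines and chemokines. In inflamed joints they stand in contact with synovial fluid and with injected products. Platelet lysates carry growth factors and chemokines released from platelet granules. Serum is the fluid that remains after blood has clotted, and how far the contents of these products differed was not measured here.

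Depth ranged from 28410735 to 47894069 counted reads over the 6 libraries, so that 1 CPM stood for 28.4 to 47.9 reads. PRP lysate replicate 1 stood apart from the rest. On the first principal component of log2(CPM + 1) it scored -51.7, against 20.8 and 23.8 for the other PRP lysate libraries and 17.8 to 26.6 for the ACS libraries. It differed at least 2-fold from the mean of the other PRP lysate libraries in 2220 genes, 1729 of them lower, while such counts were 300 and 431 for the other PRP lysate libraries and at most 62 for an ACS library. The mean distance between libraries was 54.0 between the products, 67.6 within PRP lysate and 30.2 within ACS. IL-1ß replicate 3 stood further apart at -103. It enters the comparison of the products through the filter on mean CPM and the shared estimate of the spread, and it is part of every value given for IL-1ß alone.

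The labelled cell type was checked against markers. All 8 macrophage markers in the data were detected, among them CD68, CD14 and CSF1R, with a summed level of 3646 to 4894 CPM with ACS and 3950 and 4234 CPM in PRP lysate replicates 2 and 3, but 2034 CPM in replicate 1. The 11 T cell markers summed to 1922 CPM in PRP lysate replicate 1, 986 and 1165 CPM in the other PRP lysate libraries and 1004 to 1237 CPM with ACS. The 9 markers of NK and cytotoxic cells summed to 1317 CPM in that library, 517 and 583 CPM in the others and 407 to 654 CPM with ACS. Summed ribosomal protein genes stood at 56039 CPM there, against 31458 to 35083 CPM in the remaining 5 libraries. Lymphocyte transcripts were thus present in every library of both groups. In bulk samples fewer cells of a type and less RNA per cell cannot be told apart, and the part of these differences in the results was not tested.

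**Figure D1:**
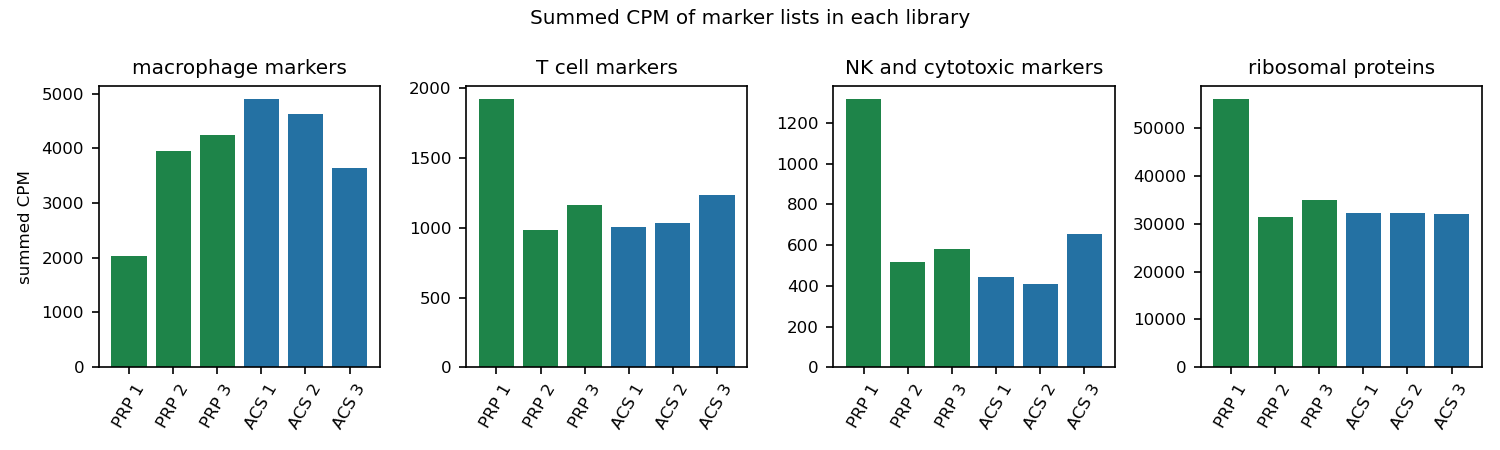
Summed CPM of macrophage markers, T cell markers, NK and cytotoxic markers and ribosomal protein genes (y axes, linear from 0) in each of the 3 PRP lysate libraries (green) and 3 ACS libraries (blue). PRP lysate replicate 1 has the lowest macrophage sum, 2034 CPM, and the highest ribosomal protein sum, 56039 CPM.

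Markers of other cell types were examined too. The 9 platelet and megakaryocyte markers summed to 18.4 CPM in PRP lysate replicate 1, 46.2 and 39.7 CPM in the other PRP lysate libraries and 27.0 to 43.3 CPM with ACS. The 6 red cell markers summed to 2.10 to 3.56 CPM with PRP lysate and 3.00 to 3.85 CPM with ACS. Sums for B and plasma cells, dendritic cells and fibroblasts overlapped between the groups, as did those of neutrophil markers, which other myeloid cells share. The neutrophil markers summed to 13047 to 16870 CPM with PRP lysate and 10794 to 14603 CPM with ACS. In each library this was more than the sum of the macrophage markers. The endothelial markers summed to 79.1 to 130 CPM with PRP lysate and 132 to 168 CPM with ACS, but of the 7 tested 3 had positive and 4 negative log2 fold changes, with a median of -0.14 that was 0.10 without PRP lysate replicate 1. CDH5 among them was at 6.13 ± 3.17 CPM with PRP lysate and 2.44 ± 0.673 CPM with ACS (SD, n = 3). The groups overlapped, PRP lysate replicate 1 being at 2.47 CPM, and CDH5 was not called (BH adjusted p = 0.752 in limma). VWF, an endothelial gene of this list, was listed at 0 in all 6 libraries, as were RPS23 and CD59, genes that most cells use, so a listed 0 does not show absence.

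Between the products 11 of the 11628 genes, or 0.0946%, were called, which took a p-value of at most 0.05 after Benjamini-Hochberg (BH) adjustment and a 2-fold or larger difference. Every one of the 11 was lower with PRP lysate. They encode the clearance receptors MERTK and CD163, the adhesion receptor SELP, the TGF-beta family receptor ACVRL1, the enzymes TGM2, MMP1, CTSC and CYP27B1, and SLC22A3, TMEM176B and NDUFA4L2. The test was limma on log2(CPM + 1) with a trend on the mean level, fitted to all 15 libraries in 5 conditions. The added 1 shrinks the fold changes of weakly expressed genes. No gene was called higher with PRP lysate by limma, where at an uncorrected p of at most 0.05 and a 2-fold difference 6 genes were higher (0.0516%) and 90 lower (0.774%). DESeq2 on reads recovered from the CPM called 61 genes, 7 higher and 54 lower, and edgeR called 11, all lower. Without PRP lysate replicate 1, 14 genes were called, 9 of them among the 11. The count was 7 without PRP lysate replicate 3, 7 without ACS replicate 1, 5 without ACS replicate 2 and 30 without IL-1ß replicate 3. A fit of the 6 libraries alone, whose pooled spread rests on these libraries only, called 0 genes by limma.

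**Figure D2:**
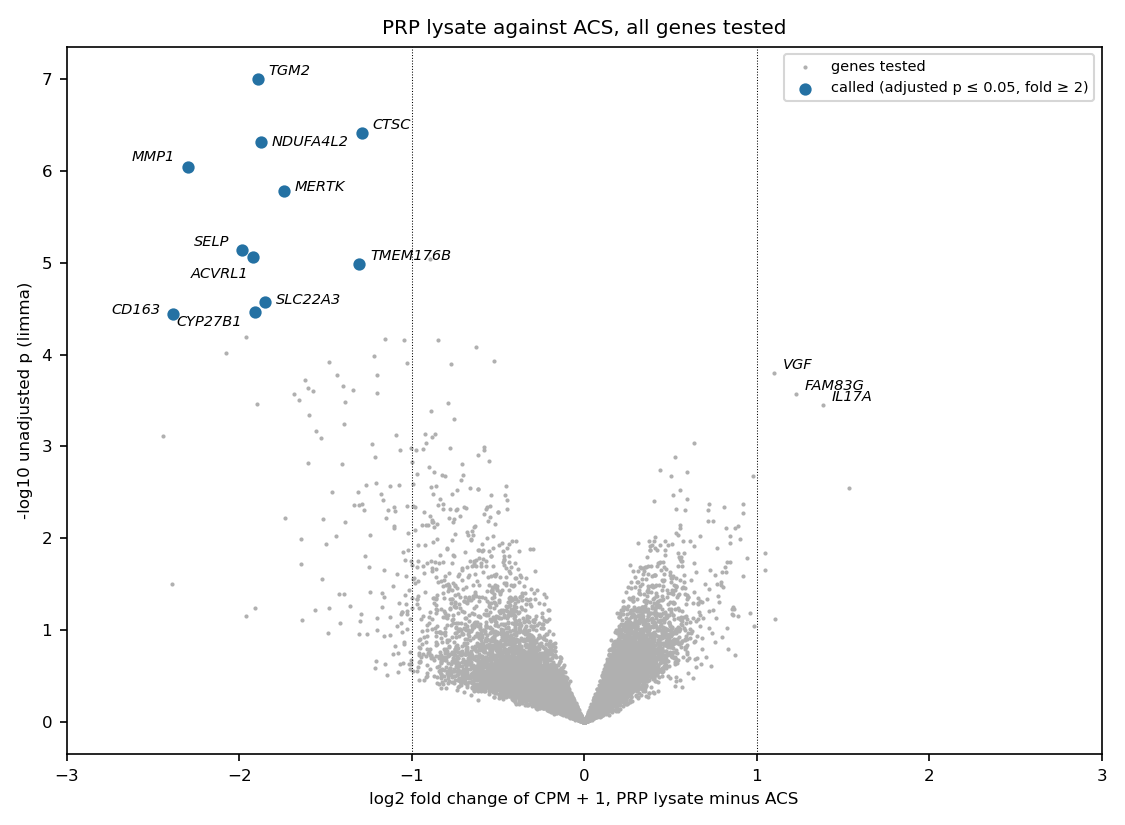
Each point is 1 of the 11628 genes tested, with the log2 fold change of CPM + 1 between PRP lysate and ACS on the x axis (positive is higher with PRP lysate), -log10 of the unadjusted limma p-value on the y axis, and dotted lines at a 2-fold difference. All 11 genes called by limma lie on the side lower with PRP lysate, and VGF, FAM83G and IL17A, which limma did not call, mark the other side.

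Differences were larger on the lower side in number too. A log2 fold change of at least 1 in size was found in 144 genes, 137 of them lower with PRP lysate and 7 higher. Over all genes tested the median log2 fold change was -0.04, and 0.0042 without PRP lysate replicate 1, so that its sign turned with 1 library. With all libraries its median size was 0.21, and 6415 genes had a negative value. The 3 PRP lysate libraries lay below the 3 ACS libraries in 1043 genes (8.97%) and above them in 775 (6.66%), 15.6% in all. The groups did not overlap in any of the 11 called genes, and in each the PRP lysate libraries were the lower ones.

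Among the clearance receptors, MERTK, a receptor kinase with which macrophages engulf apoptotic cells, stood at 7.44, 9.35 and 5.56 CPM in the PRP lysate libraries and at 26.5, 28.2 and 25.7 CPM in the ACS libraries. All PRP lysate libraries, the one that stood apart included, were within the same narrow low range. MERTK (ENSECAG00000023970, chromosome 15, 15557406 to 15659751, EquCab3.0) had a log2 fold change of -1.74 (SE 0.212, BH adjusted p = 0.00386 in limma). It kept the call in all 6 fits that each dropped a library, with values from -1.90 to -1.57.

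CD163, the scavenger receptor that takes up haemoglobin bound to haptoglobin, had 7.34, 13.3 and 13.4 CPM with PRP lysate and 92.0, 58.6 and 43.2 CPM with ACS. The spread among ACS libraries was wide, yet the lowest of them lay well above the highest PRP lysate library. CD163 (ENSECAG00000019111, chromosome 6, 35896420 to 35918134) had a log2 fold change of -2.39 (SE 0.389, BH adjusted p = 0.0347 in limma). It kept the call in 1 of 6 fits without 1 library, the one without ACS replicate 3, and was -2.12 without PRP lysate replicate 1 (BH adjusted p = 0.0934 in limma). It was also lost without each of PRP lysate replicates 2 and 3 and ACS replicates 1 and 2, with the largest BH adjusted p of limma, 0.237, without ACS replicate 1. CD163 lost the call with no filter on low values too. With IL-1ß alone the gene was at 563 ± 173 CPM (SD, n = 3), far above both products.

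All 12 genes tested of a list of efferocytosis receptors and bridging ligands, the machinery for engulfing dead cells, had negative log2 fold changes, and MERTK was the only one called. The median was -0.56, beside -0.04 for all genes tested, and -0.23 without PRP lysate replicate 1, beside 0.0042. In 5 of the 12, against 8.97% of all genes, the 3 PRP lysate libraries lay below the 3 ACS libraries. ABCA1, which exports cholesterol and lies on the list for its part in engulfment, had the largest value, -2.39, with a standard error of 0.993 and a limma Benjamini-Hochberg adjusted p of 0.842. Its PRP lysate libraries were at 4.30, 34.2 and 31.1 CPM, and its log2 fold change without replicate 1 was -1.50. Of 21 scavenger receptor and haem handling genes, 17 had negative values and CD163 was the only one called. Their median of -0.28 became -0.00 without that library.

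SELP encodes P-selectin, an adhesion receptor known from platelets and endothelium. It was measured at 4.25, 3.20 and 3.59 CPM with PRP lysate and at 21.2, 19.6 and 12.6 CPM with ACS. All PRP lysate libraries lay below all ACS libraries. Of the 4 platelet and megakaryocyte markers tested 3 had negative values, while PPBP, a platelet chemokine, had a log2 fold change of 1.05 that was not called. SELP (ENSECAG00000010918, chromosome 5, 6041689 to 6088031) had a log2 fold change of -1.98 (SE 0.277, BH adjusted p = 0.0133 in limma), and kept the call in 3 of 6 fits without 1 library. Of 30 integrin and adhesion genes 24 had negative values, with a median of -0.15 that was -0.08 without PRP lysate replicate 1, and SELP was the only one called.

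ACVRL1, a type I receptor of the TGF-beta family also known as ALK1, had 3.09, 8.27 and 7.07 CPM with PRP lysate and 24.7, 26.0 and 22.9 CPM with ACS. The ACS libraries were close together and all above the PRP lysate libraries. ACVRL1 (ENSECAG00000009133, chromosome 6, 69990678 to 70000042) had a log2 fold change of -1.92 (SE 0.273, BH adjusted p = 0.0133 in limma) and of -1.56 without PRP lysate replicate 1. It kept the call in 4 of 6 fits without 1 library and lost it without ACS replicate 1 and without ACS replicate 2. Of 30 ligands, receptors and response genes of TGF-beta, 23 had negative values, the PRP lysate libraries lay below the ACS libraries in 9, against 8.97% of all genes, and ACVRL1 was the only one called. The median was -0.30, and -0.14 without PRP lysate replicate 1. TGFBI, a matrix protein named for its response to TGF-beta, was at 235 ± 126 CPM with PRP lysate and 650 ± 153 CPM with ACS (SD, n = 3), with a log2 fold change of -1.60 that did not pass (BH adjusted p = 0.264 in limma), though DESeq2 called it (adjusted p = 0.0359), and that was -1.13 without PRP lysate replicate 1.

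**Figure D3:**
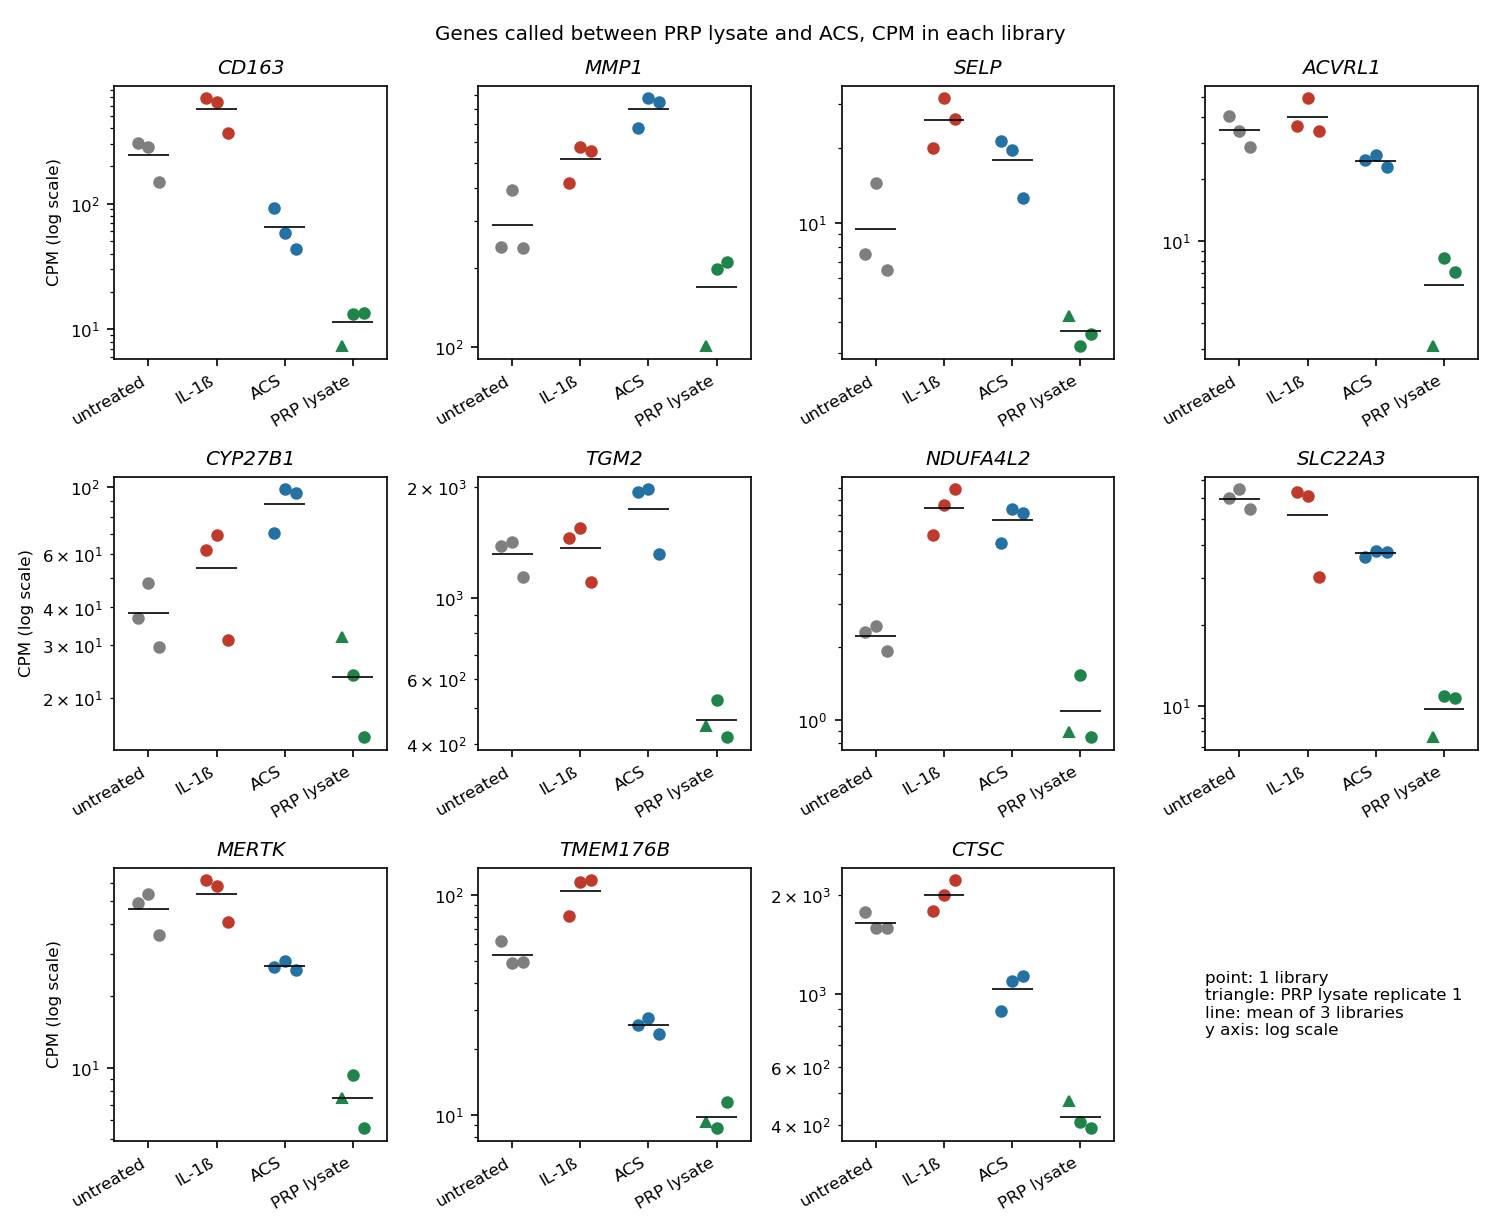
CPM on log scales (y axes, a scale of its own for each gene) of the 11 called genes in untreated macrophages (grey), with IL-1ß alone (red), IL-1ß with ACS (blue) and IL-1ß with PRP lysate (green); points are libraries, the triangle is PRP lysate replicate 1 and lines are means of 3 libraries. In every gene the 3 PRP lysate libraries lie below the 3 ACS libraries, as in TGM2 with 465 against 1745 CPM on average.

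Of the enzymes, TGM2, tissue transglutaminase, crosslinks proteins of the matrix and is a known marker of macrophages treated with IL-4. It stood at 449, 528 and 417 CPM in the PRP lysate libraries and at 1944, 1975 and 1317 CPM in the ACS libraries. The lowest ACS library was within the range of macrophages with IL-1ß alone, 1102 to 1549 CPM, while all PRP lysate libraries lay under it. TGM2 (ENSECAG00000006290, chromosome 22, 29270953 to 29302728) had the smallest adjusted p-value of all genes, with a log2 fold change of -1.89 (SE 0.180, BH adjusted p = 0.00116 in limma). The other members of a list of 19 genes that respond to IL-4 or IL-13 were not called. Of the 19, 13 had negative values, with a median of -0.21.

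MMP1 encodes interstitial collagenase, which cleaves fibrillar collagen. Its PRP lysate libraries were at 100, 197 and 209 CPM and its ACS libraries at 676, 877 and 847 CPM. The groups did not overlap, and PRP lysate replicate 1 was the lowest of all. MMP1 (ENSECAG00000023733, chromosome 7, 13098650 to 13176365) had a log2 fold change of -2.30 (SE 0.265, BH adjusted p = 0.00264 in limma), and -1.96 without that library, where it stayed called. Of 23 matrix proteases and inhibitors 22 had negative values, MMP1 was the only one called, and the median was -0.29. The median without PRP lysate replicate 1 was -0.05, beside 0.0042 for all genes without that library. MMP9 was the only member with a positive value, 0.27, and was not called.

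CTSC, cathepsin C, is the lysosomal protease that activates serine proteases of granules. It was measured at 473, 409 and 392 CPM with PRP lysate and at 890, 1098 and 1133 CPM with ACS. PRP lysate replicate 1 was here the highest library of its group, and still under every ACS library. CTSC (ENSECAG00000020881, chromosome 7, 59885819 to 59922283) had a log2 fold change of -1.29 (SE 0.138, BH adjusted p = 0.00187 in limma). Of 40 lysosomal genes 33 had negative values and CTSC was the only one called. Their median of -0.20 was -0.05 without PRP lysate replicate 1 and -0.35 without replicate 2.

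CYP27B1 makes the active form of vitamin D, a step that activated macrophages carry out. Its PRP lysate libraries were at 32.0, 23.8 and 14.9 CPM and its ACS libraries at 70.5, 98.5 and 95.6 CPM. CYP27B1 (ENSECAG00000025143, chromosome 6, 76244971 to 76248860) had a log2 fold change of -1.91 (SE 0.310, BH adjusted p = 0.0347 in limma) and kept the call in 1 of 6 fits without 1 library, the one without PRP lysate replicate 1. The call was also lost with no filter on low values. Macrophages with IL-1ß alone lay between the groups on average, at 54.2 ± 20.3 CPM (SD, n = 3).

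SLC22A3, a transporter of organic cations, had 7.60, 10.9 and 10.7 CPM with PRP lysate and 36.2, 38.1 and 37.6 CPM with ACS. Libraries within each group were close to each other and far from the other group. The log2 fold change of SLC22A3 (ENSECAG00000004372, chromosome 31, 8034303 to 8129004) was -1.85 (SE 0.293, BH adjusted p = 0.0313 in limma). Its call was lost in each of the 6 fits without 1 library, with values from -1.93 to -1.70 and an adjusted p of 0.0823 without PRP lysate replicate 1 (limma, Benjamini-Hochberg).

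NDUFA4L2, a mitochondrial protein of the response to low oxygen, was low in all groups. It was at 0.887, 1.53 and 0.845 CPM with PRP lysate and at 5.35, 7.40 and 7.10 CPM with ACS. The PRP lysate libraries were also below the untreated macrophages, at 2.22 CPM on average. NDUFA4L2 (ENSECAG00000023525, chromosome 6, 75826380 to 75827914) had a log2 fold change of -1.87 (SE 0.204, BH adjusted p = 0.00187 in limma). Of 42 glycolysis and hypoxia genes it was the only one called, 28 had negative values and the median was -0.18, and -0.11 without PRP lysate replicate 1. In 10 of the 42 the PRP lysate libraries lay below the ACS libraries, and in 0 above them, against 8.97% and 6.66% of all genes.

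TMEM176B, a membrane protein of myeloid cells, had 9.32, 8.73 and 11.4 CPM with PRP lysate and 25.7, 27.6 and 23.5 CPM with ACS. TMEM176B (ENSECAG00000020204, chromosome 4, 102567743 to 102593510) had a log2 fold change of -1.30 (SE 0.188, BH adjusted p = 0.0133 in limma). Its span holds TMEM176A (102576962 to 102581846), and since the strand setting of the counting is not stated, the division of reads between them is uncertain. TMEM176B kept the call in 3 of 6 fits without 1 library, losing it without PRP lysate replicate 2, ACS replicate 1 and ACS replicate 2. It also lost the call with TMM factors and with RLE size factors, which scale each library by its genes of middling change.

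TGM2, MMP1, CTSC, MERTK and NDUFA4L2 kept the call in all 6 fits without 1 library and in 17 of 18 alternatives in all, being lost only in the fit of the 6 libraries alone. FGR, a kinase of the Src family in myeloid cells, also passed on the p-value (BH adjusted p = 0.0133 in limma), but at a log2 fold change of -0.89 it fell short of the threshold on fold change.

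Both products can also be set beside IL-1ß alone, with the reminder that both comparisons share the same IL-1ß libraries. CD163 had a log2 fold change of -5.50 with PRP lysate and -3.12 with ACS, TMEM176B of -3.27 and -1.97, MERTK of -2.69 and -0.95, and CTSC of -2.23 and -0.95. These are differences from IL-1ß alone, in which both values were negative, with BH adjusted p of at most 0.0273 in limma. The ACS values of MERTK and CTSC fell short of a 2-fold difference. ACVRL1 had -2.58 with PRP lysate and -0.66 with ACS, SELP -2.50 and -0.52, SLC22A3 -2.24 and -0.39, and NDUFA4L2 -2.01 and -0.14. Both values were negative here too, but those with ACS did not pass (BH adjusted p of 0.206, 0.276, 0.391 and 0.647 in limma). MMP1 had -1.66 with PRP lysate and 0.64 with ACS, TGM2 -1.55 and 0.34, and CYP27B1 -1.15 and 0.75. The positive values with ACS did not pass (BH adjusted p of 0.208, 0.274 and 0.204 in limma), nor did the value of CYP27B1 with PRP lysate (0.0508).

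Cytokines and a prostaglandin were also measured in supernatants of these cultures, and the genes of 11 such analytes were followed here. None of the 11 was called between the products by limma, while 2 of them had an uncorrected p of at most 0.05, as did 5.19% of all genes. DESeq2 and edgeR called none of them either. Their median log2 fold change was 0.24 and 9 of 11 were positive, against 5213 of all 11628 genes. PTGS2, the inducible cyclooxygenase of prostaglandin synthesis, was at 2.10, 12.5 and 13.9 CPM with PRP lysate and 17.0, 13.9 and 12.1 CPM with ACS, so that its log2 fold change of -0.83 was -0.10 without PRP lysate replicate 1.

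TNF, a central pro-inflammatory cytokine, was at 112, 139 and 112 CPM with PRP lysate and 76.8, 80.1 and 81.5 CPM with ACS. IFNG, which encodes interferon gamma and is made by T and NK cells, was at 30.1, 36.1 and 43.0 CPM with PRP lysate and 22.0, 16.7 and 22.3 CPM with ACS. In both genes all PRP lysate libraries lay above all ACS libraries, but neither passed. The log2 fold change was 0.60 for TNF (SE 0.270, BH adjusted p = 0.842 in limma). For IFNG it was 0.81 (SE 0.237, BH adjusted p = 0.433 in limma). Against IL-1ß alone the values of TNF were 1.99 with PRP lysate and 1.39 with ACS, and those of IFNG were 1.87 and 1.06.

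IL1B, the gene of IL-1ß itself, was the analyte gene that 1 library moved most. It was at 6.53, 76.4 and 67.9 CPM with PRP lysate and at 34.1, 16.6 and 19.0 CPM with ACS. PRP lysate replicate 1 was thus under all ACS libraries and the other PRP lysate libraries over them. The log2 fold change of IL1B was 0.57 (SE 0.667, BH adjusted p = 0.842 in limma) and 1.66 without replicate 1 (adjusted p = 0.0834, limma with Benjamini-Hochberg adjustment). CXCL8, a neutrophil chemokine, also had replicate 1 under all ACS libraries and the other PRP lysate libraries over them. It was at 907, 2874 and 3058 CPM against 1748, 1233 and 1927 CPM, with a log2 fold change of 0.31 that was 0.88 without replicate 1. IL6 had 1.96, 12.5 and 13.9 CPM against 17.5, 10.4 and 6.01 CPM, and its log2 fold change of -0.44 turned to 0.32 without replicate 1.

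IL10, an anti-inflammatory cytokine, was at 9.30 ± 1.74 CPM with PRP lysate and 7.29 ± 1.58 CPM with ACS (SD, n = 3). IL4 was at 9.93 ± 0.970 CPM and 8.88 ± 1.31 CPM, a log2 fold change of 0.15 with a standard error of 0.213. CXCL1, CXCL10 and CCL5 had log2 fold changes of 0.08, 0.22 and 0.24 with standard errors of 0.260, 0.303 and 0.288. The groups overlapped in all 5 of these genes.

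IL17A, the cytokine of T helper 17 cells, had the largest value on the side higher with PRP lysate among the T helper and type 2 cytokines. It was at 5.13, 8.82 and 5.03 CPM with PRP lysate and at 1.66, 2.34 and 1.29 CPM with ACS. Every PRP lysate library was above every ACS library. The log2 fold change of 1.38 (standard error 0.289) did not pass in limma (Benjamini-Hochberg adjusted p = 0.106), while DESeq2 gave an adjusted p of 0.0122. Over all alternatives its adjusted p ranged from 0.0091 to 0.490. Of the 11 cytokines in this list 8 had positive values, with a median of 0.32 and of 0.20 without PRP lysate replicate 1. None was called by limma, 3 had an uncorrected p of at most 0.05, against 5.19% of all genes, and DESeq2 called 1.

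VGF and FAM83G, both chosen after their values were seen, were the other genes on this side nearest to a call in limma. DESeq2 gave them adjusted p of 0.00911 and 0.00222. VGF, a secreted neuropeptide precursor, was at 207, 278 and 257 CPM with PRP lysate and 110, 137 and 97.9 CPM with ACS, a log2 fold change of 1.10 (BH adjusted p = 0.0751 in limma). FAM83G was at 18.5, 20.9 and 22.4 CPM against 8.86, 7.59 and 8.21 CPM (log2 fold change 1.23, BH adjusted p = 0.0912 in limma). In both genes all 6 libraries were parted by product.

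With both PRP lysate replicate 1 and IL-1ß replicate 3 left out, an alternative chosen after seeing the data, 50 genes (0.43%) were called, 36 lower and 14 higher with PRP lysate. All 11 genes described above were among them. The 14 that were higher included, besides IL17A, VGF and FAM83G, the gene IL17F at 9.40 and 7.64 CPM in PRP lysate replicates 2 and 3 against 1.80, 1.29 and 0.960 CPM with ACS. IL17F had 0.403 CPM in replicate 1, and its log2 fold change was 2.03 without that library and 1.11 with it. Also among the 14 were the endothelial cadherin CDH5, IL1B, the platelet chemokine PPBP, the lactate receptor HCAR1, the hyaluronan depolymerase CEMIP and the eosinophil chemokine CCL24. The log2 fold changes of CDH5, IL1B, PPBP, HCAR1, CEMIP and CCL24 were 1.40, 1.66, 1.59, 1.19, 1.43 and 1.42 without these libraries. With them they were 0.95, 0.57, 1.05, 0.71, 0.53 and 0.86. PPBP was at 10.7, 39.1 and 31.8 CPM with PRP lysate and 16.1, 11.4 and 7.27 CPM with ACS. In CDH5, IL1B, IL17F, PPBP, HCAR1, CEMIP and CCL24, replicate 1 lay under the ACS libraries or among them. With all libraries none of these was called (BH adjusted p of 0.752 for CDH5, 0.802 for PPBP and 0.842 for the others in limma).

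Lists of pathway members were described by their counts and medians. Over all genes DESeq2 called 61 of 16932, to be set beside its counts in the lists. Of 18 complement components and receptors 17 had negative values, 0 were called by limma and 1 by DESeq2. An uncorrected p of at most 0.05 was found in 7, against 5.19% of all genes. In 8 of the 18, against 8.97% of all genes, the PRP lysate libraries lay below the ACS libraries. The median was -0.43, and -0.32 without PRP lysate replicate 1. Members with groups apart included C1S, C1R and C1QB of the first component, with log2 fold changes of -1.04, -0.92 and -0.99, and SERPING1, its inhibitor, with -0.52. They were chosen here after their values were seen. C3AR1, a receptor for a complement fragment, had a value of -1.06 (BH adjusted p = 0.842 in limma), which was -0.39 without PRP lysate replicate 1, with 5.13, 21.5 and 25.1 CPM against 29.3, 31.3 and 32.1 CPM.

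Antigen presentation genes had negative values in 22 of 30, with a median of -0.23 and of -0.21 without PRP lysate replicate 1, and 0 were called by limma. At an uncorrected p of at most 0.05 6 passed, against 5.19% of all genes, and DESeq2 called HLA-DOA and LAMP3. HLA-DOA, which modulates peptide loading of MHC class II, was at 0.430, 0.717 and 0.352 CPM with PRP lysate and at 2.45, 3.08 and 2.80 CPM with ACS. It is a gene of few reads, whose groups lay apart at a log2 fold change of -1.34 (SE 0.267, BH adjusted p = 0.0912 in limma). LAMP3, known from mature dendritic cells, was at 1.49 ± 0.190 CPM against 4.97 ± 0.381 CPM (SD, n = 3; log2 fold change -1.26, BH adjusted p = 0.366 in limma and 0.0065 in DESeq2).

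Of 43 interferon response genes 34 had negative values and 0 were called by limma or DESeq2. An uncorrected p of at most 0.05 was found in 9, against 5.19% of all genes. The median of -0.34 was -0.15 without PRP lysate replicate 1. IFIT2, an antiviral effector, was at 6.66, 67.9 and 34.1 CPM with PRP lysate and 88.9, 67.1 and 56.3 CPM with ACS, with overlapping groups. Pattern recognition genes had a median of -0.28 with 28 of 35 negative, growth factors and their receptors -0.29 with 22 of 25, and matrix and matricellular genes -0.30 with 13 of 17. In each the median was closer to 0 without PRP lysate replicate 1, at -0.13, -0.11 and -0.18. None of their genes was called by limma, and DESeq2 called 0, 0 and 2. At an uncorrected p of at most 0.05 were 4 of 35, 5 of 25 and 6 of 17, against 5.19% of all genes.

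The genes of the ATF4 response to amino acid shortage had positive values in 24 of 37, with a median of 0.12, and of 0.14 without PRP lysate replicate 1. None was called by limma, 6 had an uncorrected p of at most 0.05, against 5.19% of all genes, and DESeq2 called 1, PHGDH. In 10 of the 37, against 6.66% of all genes, the PRP lysate libraries lay above the ACS libraries. PHGDH, the first enzyme of serine synthesis, was at 10.1, 5.07 and 8.52 CPM with PRP lysate and 2.73, 3.37 and 4.13 CPM with ACS. Its log2 fold change was 0.98 (SE 0.255, BH adjusted p = 0.311 in limma and 0.0417 in DESeq2). ASNS, which makes asparagine, ATF4 itself and PSAT1, all chosen after their values were seen, had log2 fold changes of 0.84, 0.57 and 0.60 with groups that did not overlap.

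CXC and CX3C chemokines had a median of 0.22, with 6 of 9 positive, and CC chemokines a median of 0.25, with 7 of 10 positive. Without PRP lysate replicate 1 these medians were 0.52 and 0.46. Neither list had a gene called by limma, where 4 of 9 and 2 of 10 had an uncorrected p of at most 0.05, against 5.19% of all genes. DESeq2 called 1 and 0, the 1 being CXCL13, lower with PRP lysate. CXCL13, which attracts B cells, was 1 of the 3 CXC and CX3C chemokines with a negative value. It was at 9.46, 6.14 and 7.18 CPM with PRP lysate and 13.2, 38.6 and 39.0 CPM with ACS (log2 fold change -1.73, BH adjusted p = 0.485 in limma and 0.0372 in DESeq2). Its groups did not overlap, but the ACS libraries spread widely.

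All 65 ribosomal protein genes tested had positive values, with a median of 0.30. Without PRP lysate replicate 1, in which their sum was highest, the median was 0.05. The nuclear genes of oxidative phosphorylation were positive in 56 of 67 with a median of 0.15, which was -0.02 without that library. Cell cycle genes were positive in 38 of 49, with medians of 0.20 and 0.09. The genes of NF-kB and SOCS feedback, of cholesterol and fatty acid synthesis, and immediate early genes had medians of 0.05, 0.07 and -0.03. Without PRP lysate replicate 1 these were 0.01, 0.08 and 0.07. The last turned to 0.02 with TMM factors and 0.01 with RLE size factors. In these 6 lists neither limma nor DESeq2 called a gene. Genes at an uncorrected p of at most 0.05 numbered 1, 0, 4, 0, 4 and 1 in the order given, against 5.19% of all genes. Pro-inflammatory cytokines and their antagonists had a median of -0.16, which was 0.12 without PRP lysate replicate 1, with 12 of 22 negative.

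**Figure D4:**
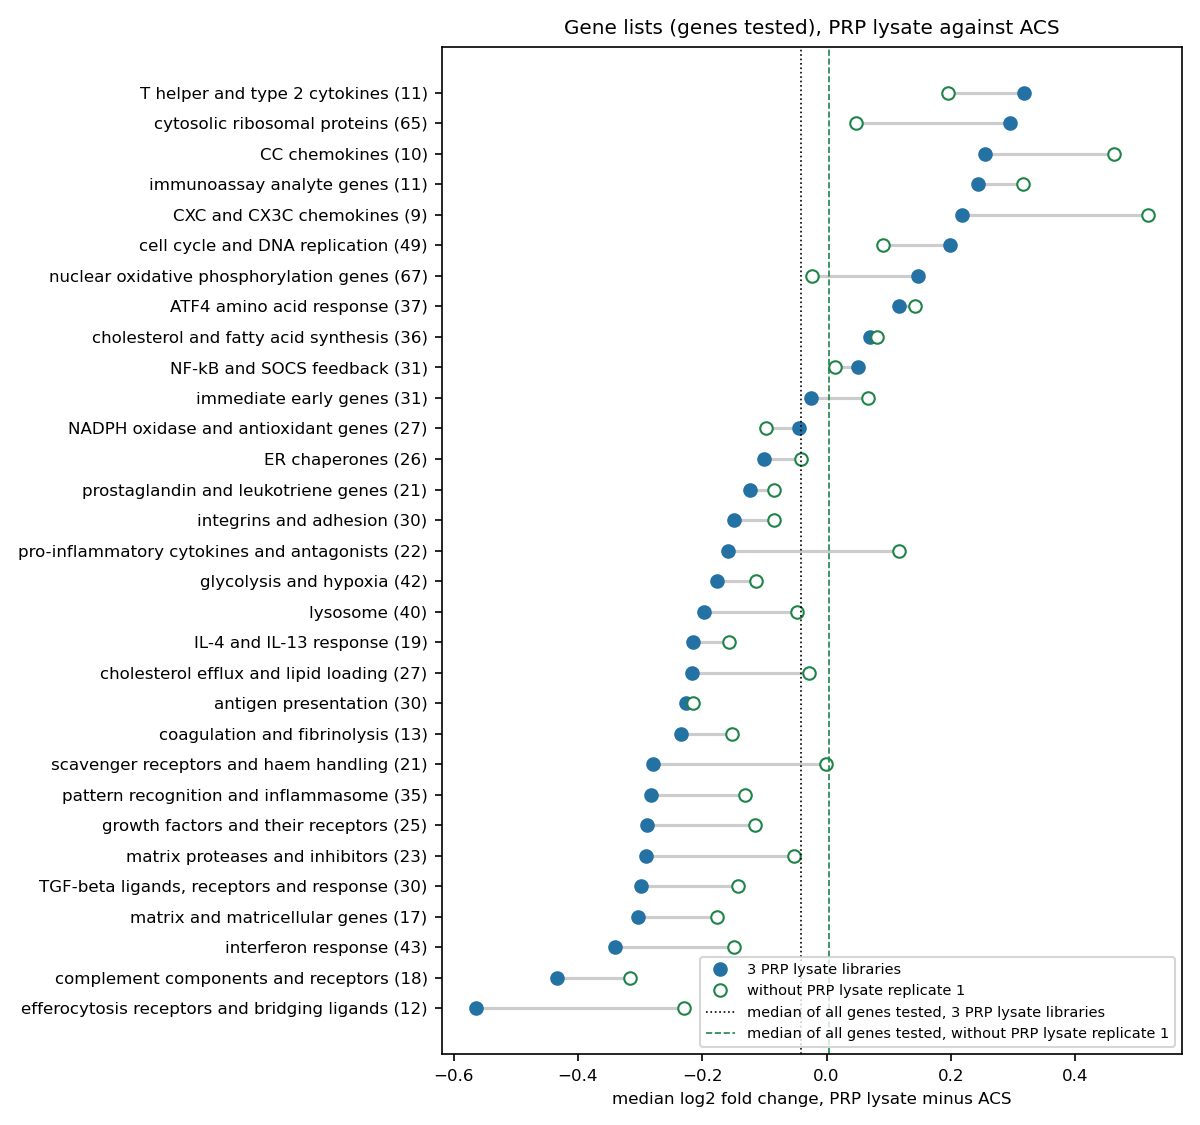
Median log2 fold change between PRP lysate and ACS (x axis) for 31 gene lists (y axis, number of genes tested in brackets), with all 3 PRP lysate libraries (filled) and without PRP lysate replicate 1 (open); the dotted line is the median of all genes tested, -0.04, and the dashed line that median without the same library, 0.0042, to be read with the open points. Efferocytosis and complement lists lie lowest, at -0.56 and -0.43, and most medians move toward 0 without the library.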

How the data were processed

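The authors trimmed 150-base paired reads with cutadapt in Partek Flow, aligned them with STAR 2.7.3 to EquCab3.0, counted them with HTSeq on Ensembl genes and deposited CPM values. The strand setting is not given in the sources used here. All columns matched a sample by their headers. The CPM of 1 read was found from the gaps between low values of a library, and dividing by it gave read counts, of which 99.6% were whole within 0.1 reads.

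Genes averaging 1 CPM or more over the 15 libraries were fitted with limma 3.58.1 (R 4.3.3) with an intensity trend on log2(CPM + 1), 5 conditions and no block, contrast PRP lysate minus ACS, and Benjamini-Hochberg adjustment over 11628 genes. All conditions share 1 estimate of the spread. ± gives the SD over 3 libraries.

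Alternatives were pseudocounts of 0.1 and 0.5, no filter on low values, a minimum of 10 reads per library, TMM factors, RLE size factors, DESeq2 1.42.0 and edgeR 4.0.16 on the recovered reads, the 6 libraries alone, a ribosomal protein covariate, other call thresholds and leaving out libraries. The recovery of reads, limma, DESeq2 and edgeR were first run on simulated data. There limma called 26.2% of 2-fold, 80.8% of 4-fold and 95.4% of 8-fold changes. Unchanged genes called there numbered 4 with limma, 22 with DESeq2 and 4 with edgeR. Each called 0 where no gene had been changed. The other alternatives were not tested in this way.

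Named genes were up to 12 called genes a side with groups apart, up to 4 called genes of each list (or, with none called, its gene of largest fold change) and the analyte genes. Other genes given with fold changes were chosen after their values were seen, FGR and MMP9 among them. The gene lists came from general knowledge, and the members and lists were chosen with earlier results of these data known. Python 3.11.15 and matplotlib 3.10.9 drew the figures.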

Additional observations from a re-analysis of the deposited data

How the results depend on the processing

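The count of 11 called genes, all lower with PRP lysate, stayed within 1.5 times with another pseudocount, filter, TMM or RLE factors, edgeR or no fold change threshold (10 to 16 genes). With no filter 9 of the 11 were among the 10 called, without CD163 and CYP27B1. It was 61 with DESeq2, 48 with the ribosomal protein covariate, 30 without IL-1ß replicate 3, 50 without both that library and PRP lysate replicate 1 (chosen after seeing the data), 96 at an uncorrected p of at most 0.05 and a 2-fold difference, and 0 in the fit of the 6 libraries alone. Leaving out 1 of the 6 libraries gave from 5 genes (without ACS replicate 2) to 16 (without PRP lysate replicate 2), with 7 without PRP lysate replicate 3 and 7 without ACS replicate 1. The cause of these shifts was not tested. Calls higher with PRP lysate numbered 7 with DESeq2, 6 with the covariate, 2 without IL-1ß replicate 3, 2 without PRP lysate replicate 1, 1 without PRP lysate replicate 2 and 14 without both libraries.

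The 7 changes of sign were all in genes that were not called. CCL5 was at -0.0581 (log2) with the ribosomal protein covariate, and IL6 at 0.32 with both libraries left out. Over the fits without 1 library CXCL1 ranged from -0.0895 (without PRP lysate replicate 2) to 0.28 and was also negative without ACS replicate 2, CXCL10 from -0.0423 (without PRP lysate replicate 2) to 0.52, IL1B from -0.0216 (without PRP lysate replicate 2) to 1.66, and IL6 from -0.85 to 0.32 (without PRP lysate replicate 1).

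No paired analysis was possible because the labels number the PRP lysate libraries and give the ACS libraries no number. The groups are described as sharing their donors, but the matching is not given, so any difference between donors stays in the spread. At 1 CPM a gene had 28.4 reads in the shallowest library, which limits the precision of weakly expressed genes. The libraries number 3 a side, of products from 3 horses.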
